A study of Mus musculus with 48 samples.

Results

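The 8 genes followed here encode parts of the complement system: the 3 chains of C1q (C1qa, C1qb and C1qc), the central components C4b and C3, the anaphylatoxin receptors C3ar1 and C5ar1, and Serping1, the inhibitor of the C1 proteases. They were chosen by gene symbol, not by their values, and all 8 were listed in both expression tables of the study, whose 16952 shared symbols came from 18939 in the APOE-TR table and 27082 in the B6 table. Their RNA was measured in the cerebral cortex of 48 mice in 12 groups of 4, formed by genotype, sex and inhaled air. The air held nPM, a nano-sized fraction of particulate matter collected beside an urban freeway, or was filtered (control). B6 mice (C57BL/6J, with the mouse Apoe gene) were 4 months old and inhaled nPM or filtered air over 8 weeks. APOE-TR mice carry human APOE3 or human APOE4 in place of mouse Apoe at the same locus, and were 6 months old after 15 weeks of either air. Sessions lasted 5 h on 3 days of each week in all groups. Strain, age, length of exposure and table all differ between B6 and APOE-TR mice, as does the nPM batch by the paper's account. These cannot be told apart, so levels were compared only within a table.

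Complement is a cascade of proteins that tags cells and debris for removal. C1q binds a surface and starts the classical pathway, C4 and then C3 are cleaved and attach to that surface, and the released fragments C3a and C5a signal through C3ar1 and C5ar1. In brain, microglia are the main source of C1q and carry C3ar1, C3 and C4 are made by reactive astrocytes among other cells, and C1q and C3 take part in the removal of synapses by microglia.

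Values are the authors' CPM, rescaled between mice, and 1 read was worth between 0.022 and 0.0481 CPM in APOE-TR mice. Sequencing depth was estimated at 17.8 to 31.3 M reads in APOE-TR mice and 2.05 to 24.4 M in B6 mice, where 5 shallow libraries had at most 6.28 M and the other 11 at least 11.4 M. In APOE-TR mice every female library was shallower (at most 22.3 M reads) than every male one (at least 22.4 M). Xist and the Y-linked Ddx3y matched the labelled sex in all 48 mice, and mouse Apoe lay at 8.78 to 28.9 CPM in APOE-TR and 163 to 506 CPM in B6 mice. Neuronal markers were abundant (summed over 8 genes, 3089 to 8744 CPM in all mice), but 7 striatal markers also summed to between 94.3 and 1643 CPM and 8 choroid plexus markers to between 1.87 and 1417 CPM, so the dissected tissue varied. Libraries that stand apart are APOE3 female controls 61 and F6, whose deposited values have the highest sums, and APOE4 female control 21, which had the highest summed microglial markers of the 32 APOE-TR mice (784 CPM). The column named F6 has an animal number that no sample carries and was placed by the allele, sex and exposure in its name. For the 8 genes, several results that rest on these mice are given with and without them, and others with them only.

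Promoter sequences from RefSeq (assembly GRCm38.p6, each running from 250 bases before to 50 bases after the annotated start) were found for 5 of the 8 genes. The following 3 belong to genes that differed between the alleles below, with C1qb and C1qc on chromosome 4 and C3 on chromosome 17, all on the minus strand and printed 5′ to 3′. In C1qb (chr4:136886151-136886450) and C1qc (chr4:136892865-136893164) the capitals mark ACTTCC, the ETS core GGAAGT read on the other strand, and in C3 (chr17:57228087-57228386) they mark the TATA motif TATAAA.
C1qb: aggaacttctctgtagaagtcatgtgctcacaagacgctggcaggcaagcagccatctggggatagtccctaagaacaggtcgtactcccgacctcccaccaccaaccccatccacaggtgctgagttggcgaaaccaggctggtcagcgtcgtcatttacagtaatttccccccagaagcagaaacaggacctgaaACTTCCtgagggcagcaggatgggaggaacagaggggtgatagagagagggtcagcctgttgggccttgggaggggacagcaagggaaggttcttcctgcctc
C1qc: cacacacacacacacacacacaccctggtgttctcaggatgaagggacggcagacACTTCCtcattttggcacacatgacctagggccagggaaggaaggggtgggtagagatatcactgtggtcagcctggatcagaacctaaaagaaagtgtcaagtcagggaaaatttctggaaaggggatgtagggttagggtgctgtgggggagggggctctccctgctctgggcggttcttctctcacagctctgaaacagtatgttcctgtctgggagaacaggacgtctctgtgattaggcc
C3: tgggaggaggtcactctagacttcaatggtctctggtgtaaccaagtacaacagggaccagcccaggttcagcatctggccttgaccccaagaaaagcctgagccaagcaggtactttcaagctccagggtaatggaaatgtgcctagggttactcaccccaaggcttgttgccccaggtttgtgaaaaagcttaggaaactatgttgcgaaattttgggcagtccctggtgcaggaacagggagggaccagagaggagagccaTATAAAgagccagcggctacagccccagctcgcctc
Counted from the annotated start, the ETS core lies at -53 in C1qb and -195 in C1qc, where it overlaps the single match to GAGGAAG (PU.1) on the same strand. The TATA motif marked in C3 lies at 14, after the annotated start and not before it. The 3 C1q genes lie side by side, at 136880145 to 136886178 (C1qb), 136889802 to 136892915 (C1qc) and 136895916 to 136898845 (C1qa). Searched on both strands, GGAAGT occurred in 3 of the 5 promoters (C1qb, C1qc and C5ar1) and in 23.8% of all 32851 RefSeq mouse promoters of that length, GAGGAAG in 1 of 5 and 13.6%, and TATAAA in 2 of 5 (C3 and C3ar1) and 13.6%. The AP-1 motif TGACTCA was found in C3ar1 alone and in 5.2% of all promoters. No match was found in these 5 windows to TTGCGCAA (C/EBP), TTCNNNGAA (STAT) or the NF-kB and ISRE consensus motifs, which occurred in 0.183%, 8.3%, 0.155% and 3.44% of all promoters. These matches describe letters and were not tested for binding.

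The 8 genes spanned a wide range of levels. Per kilobase of exon, the median level over the 32 APOE-TR mice was 35.3 CPM for C1qb, 33.4 CPM for C1qa and 16.1 CPM for C1qc, followed by C4b at 1.64, Serping1 at 1.10, C3ar1 at 0.552, C3 at 0.0936 and C5ar1 at 0.0926 CPM. In the 16 B6 mice the C1q genes again led, at 56.7 CPM per kilobase for C1qb, and C3 was lowest at 0.0126. C3 had no read in 9 of 16 B6 mice, C5ar1 in 5 and Serping1 in 1. A count of 0 allows up to 3 reads, or 0.0773 to 0.301 CPM for C3 in those 9 mice and 0.101 to 0.396 CPM for C5ar1, which covers counting error only. In APOE-TR mice all 8 genes had reads in every mouse, from as few as 2 for C5ar1 to 4061 for C1qb.

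**Figure D1:**
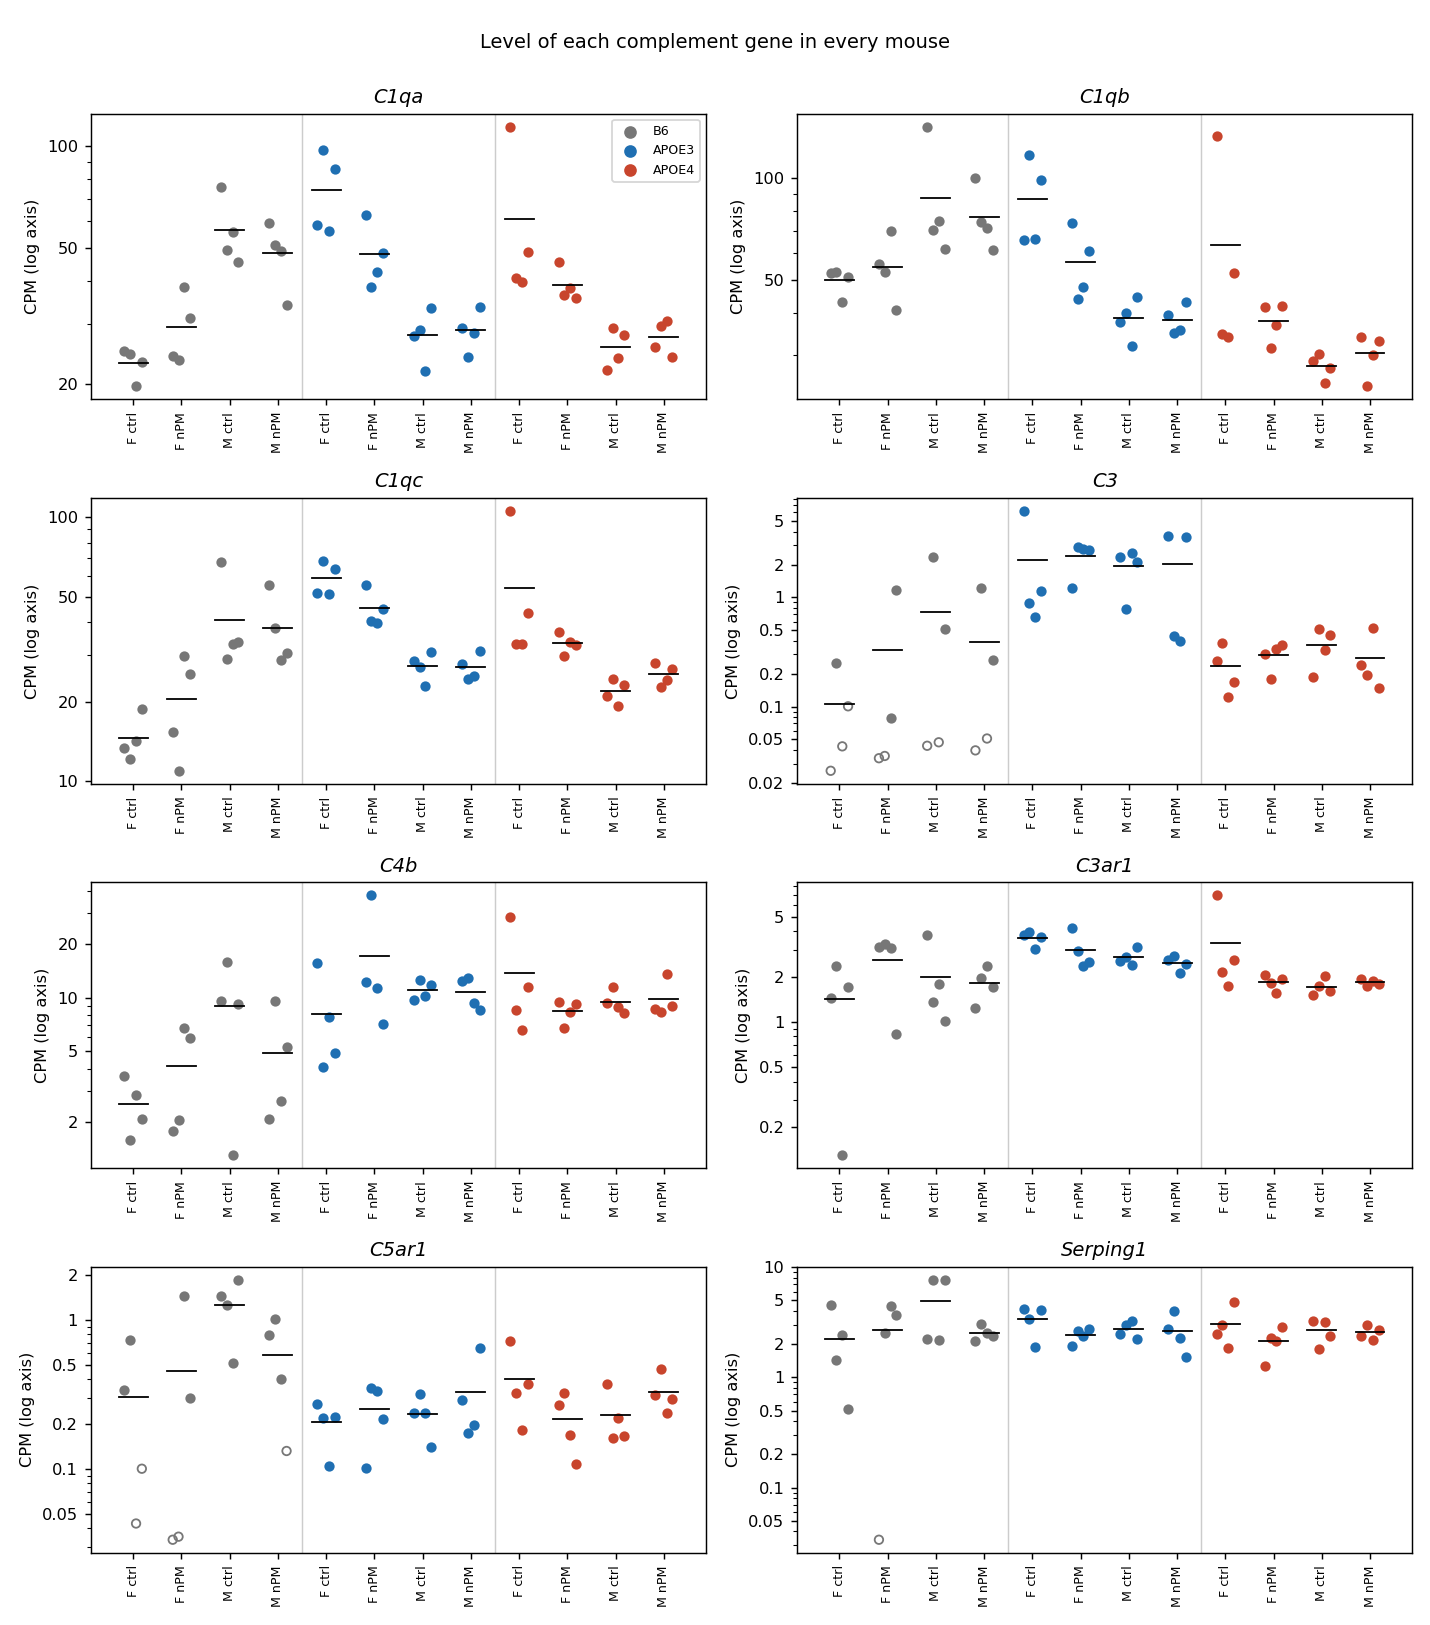
Level of each of the 8 complement genes (rescaled CPM, log axis) in every mouse, by genotype, sex and exposure. Each point is 1 mouse, open circles are mice without reads for that gene, and black bars are means of 4 mice. C3 is lower in the APOE4 than in the APOE3 groups, and the 3 C1q genes are higher in females than in males among APOE-TR mice and higher in males among B6 mice.

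C3, the component on which all complement pathways converge, had the largest allele difference of the 8 genes, and was lower with APOE4. In APOE3 male controls it was at 0.775, 2.10, 2.36 and 2.55 CPM, and in APOE4 male controls at 0.184, 0.332, 0.449 and 0.514 CPM. In females after nPM it was at 1.22, 2.72, 2.76 and 2.87 CPM with APOE3 and at 0.179, 0.302, 0.336 and 0.363 CPM with APOE4. The alleles did not overlap in either of these pairs of groups. Control females had 0.664, 0.881, 1.15 and 6.19 CPM with APOE3 and 0.122, 0.168, 0.263 and 0.385 CPM with APOE4. Males after nPM had 0.397, 0.446, 3.54 and 3.63 CPM with APOE3 and 0.147, 0.193, 0.243 and 0.521 CPM with APOE4, which was the 1 pair of groups that overlapped. APOE4 mice were low, resting on 3 to 21 reads each against 17 to 158 in APOE3. The SD within a group was 32.8% to 119% of its mean with APOE3 and 27.5% to 60.9% with APOE4.

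Averaged over the 4 groups of each allele, C3 was at 2.14 CPM in APOE3 and 0.294 CPM in APOE4 mice, a ratio of 7.29. Of 16 APOE3 mice, 14 lay above the highest APOE4 mouse. In the fit of all 32 APOE-TR mice by sex, exposure and allele, C3 was 1.52 lower in APOE4 on the log2(CPM + 0.5) scale (SE 0.224, 95% interval 1.06 to 1.98, limma adjusted p = 5.33e-05), which understates the ratio of so low a gene. It ranked 68 by p among 15972 genes tested. Within strata, C3 was called lower in APOE4 among control males (1.43 on the log2 scale, adjusted p = 0.0378) and among females after nPM (1.82, adjusted p = 0.00577). It was 1.497 lower in control females (adjusted p = 0.0780) and 1.35 lower in males after nPM (adjusted p = 0.389), and neither was called. A call here means 5% FDR over all genes tested. C3 was below the filter in the 48-mouse fit because of the B6 mice, and without that filter its allele difference there was -1.52 (adjusted p = 1.63e-05). The call in control males was fragile, since it was lost when any of 7 of the 8 mice was left out, and control 52 (6.19 CPM) decided the call in control females, where the difference without it was -0.93 (adjusted p = 0.0251).

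Read against all genes, 1 of the 8 complement genes was called in control males, where 0.433% of 16866 genes were, and 1 in females after nPM, where 0.145% of 16509 were. None was called in control females (0.231% of genes) or in males after nPM (0.474%). In the 48-mouse fit, 5 of the 8 passed the filter on low values and none was called, against 0.378% of 11097 genes. At an unadjusted p under 0.05, 4 of 8 differed in control males (5.82% of all genes), 4 of 8 in females after nPM (9.10%), 1 of 8 in control females (41.1%), 3 of 8 in males after nPM (9.85%), and 2 of 5 in the 48-mouse fit (15.1%). In the fit of 32 mice, 4 of 8 were called, all lower in APOE4 (C3, C3ar1, C1qb and C1qc), but 29.0% of all genes were called there too. The study had named C3 and C3ar1 for their allele difference on these same mice, so those 2 are not independent evidence of a direction.

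**Figure D2:**
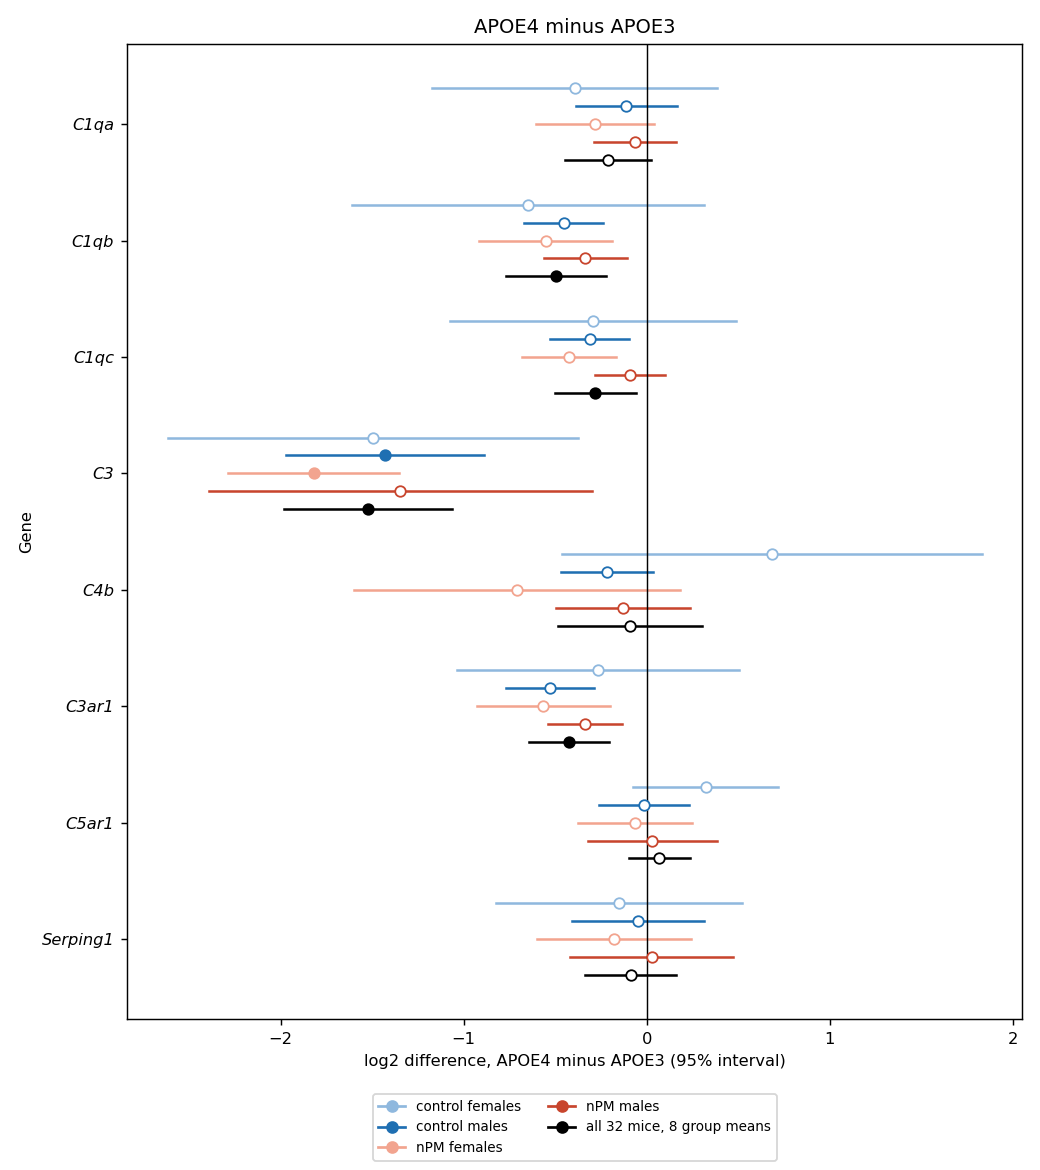
Difference between the alleles (APOE4 minus APOE3, log2(CPM + 0.5) scale) for each gene in the 4 strata of sex and exposure (4 mice against 4) and in the fit of 32 APOE-TR mice, with 95% intervals from limma. Filled points are called at 5% FDR. C3 lies furthest below 0, at -1.52 in 32 mice, and C4b, C5ar1 and Serping1 span 0.

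C3ar1, the receptor for the C3 fragment C3a, was also lower with APOE4, by less. APOE3 male controls had 2.40, 2.53, 2.69 and 3.16 CPM and APOE4 male controls 1.51, 1.61, 1.73 and 2.01 CPM. After nPM, APOE3 males had 2.12, 2.42, 2.56 and 2.73 CPM and APOE4 males 1.74, 1.79, 1.87 and 1.94 CPM. Among males the alleles did not overlap with either air. APOE3 females had 3.08, 3.69, 3.78 and 3.97 CPM in filtered air and 2.35, 2.51, 2.98 and 4.21 CPM after nPM. APOE4 females had 1.73, 2.15, 2.59 and 6.93 CPM in filtered air and 1.55, 1.83, 1.92 and 2.05 CPM after nPM, so that after nPM the alleles were separate in females too. The single APOE4 mouse above the APOE3 range was female control 21, while 13 of 16 APOE4 mice lay below the lowest APOE3 mouse. In 32 mice C3ar1 fell by 0.42 on the log2 scale in APOE4 (SE 0.107, 95% interval 0.21 to 0.64, adjusted p = 0.0109), and by 0.52 without animal 21 (adjusted p = 4.37e-06). In single strata the differences were -0.27 in control females, -0.53 in control males, -0.56 in females after nPM and -0.34 in males after nPM, none of them called (adjusted p from 0.104 to 0.567).

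The 3 C1q chains, which assemble into 1 protein, differed in how far they followed the allele. C1qb fell by 0.50 on the log2 scale in APOE4 in the 32 mice (SE 0.133, adjusted p = 0.0140) and C1qc by 0.28 (SE 0.107, adjusted p = 0.0497), while C1qa differed by -0.21 (95% interval -0.45 to 0.02, adjusted p = 0.148) and was not called. C1qb was at 31.8, 37.6, 40.02 and 44.6 CPM in APOE3 male controls and at 24.8, 27.5, 28.9 and 30.3 CPM in APOE4 male controls. In males after nPM it was at 34.8, 35.5, 39.3 and 42.96 CPM with APOE3 and at 24.2, 30.04, 33.0002 and 33.95 CPM with APOE4. The alleles were separate in both pairs of male groups. In females after nPM, C1qb was at 43.8, 47.7, 60.98 and 73.99 CPM with APOE3 and 31.5, 36.9, 41.5 and 41.7 CPM with APOE4, again without overlap. In control females it was at 65.8, 66.3, 98.7 and 117 CPM with APOE3 and 33.98, 34.5, 52.4 and 133 CPM with APOE4, and animal 21 alone made these groups overlap. No single stratum gave a call for a C1q gene, with C1qb differences between -0.65 and -0.33. The largest of these, in control females, was -0.30 without controls 61 and F6. The call of C1qc was marginal, since it was lost when any of 26 of the 32 mice was left out. Without animal 21 the differences in the 32-mouse fit were -0.61 for C1qb, -0.38 for C1qc and -0.30 for C1qa, and C1qa was then called too (adjusted p = 0.0159).

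Because the chains come from adjacent genes, the ratio of C1qb to C1qa in the same mouse was also taken, a measure chosen after the values were seen. Its median was 1.26 in APOE3 mice (1.12 to 1.46) and 1.01 in APOE4 mice (0.822 to 1.38). The ratio was lower with APOE4 by 0.35 on the log2 scale in control males, where the groups did not overlap (two-sided exact permutation p = 0.0286, the smallest that 4 against 4 can give). It was lower by 0.26 in control females (exact p = 0.0857), by 0.27 in females after nPM (exact p = 0.0857) and by 0.27 in males after nPM (exact p = 0.257). Adjusted over the 12 ratios tested, none was under 0.206. In B6 mice, on the other table, the median ratio was 1.81 (1.30 to 2.32).

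Many microglial genes were lower with APOE4 as well. Summed over 15 microglial markers, APOE3 mice lay at 353 to 668 CPM (median 406) and APOE4 mice at 329 to 784 CPM (median 369), and none of the 15 was at 0. In the 32-mouse fit 8 of 15 were called lower in APOE4 (among them Aif1, Siglech, Gpr34, Olfml3, Fcrls, Tyrobp and Ctss) and none higher. Their median difference was -0.26 against 0.00 over all genes, and 29.0% of all genes were called in that fit. In bulk tissue fewer cells of a type and less RNA per cell cannot be told apart. When each mouse's mean microglial marker level was subtracted, an alternative chosen after seeing the data, C3 was still called lower in APOE4 (-1.40, adjusted p = 5.79e-05), as were C1qb (-0.27, adjusted p = 0.0108) and C3ar1 (-0.24, adjusted p = 0.00890). C1qc (-0.05) and C1qa (0.02) then lay near 0 and were not called. Of markers for other immune cells, 7 border macrophage genes summed to 3.22 to 10.6 CPM and 6 neutrophil genes to 0.316 to 7.09 CPM in APOE-TR mice, and their part in these results was not tested. Of 10 astrocyte markers, 4 were called lower and none higher in APOE4 (median -0.18).

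**Figure D3:**
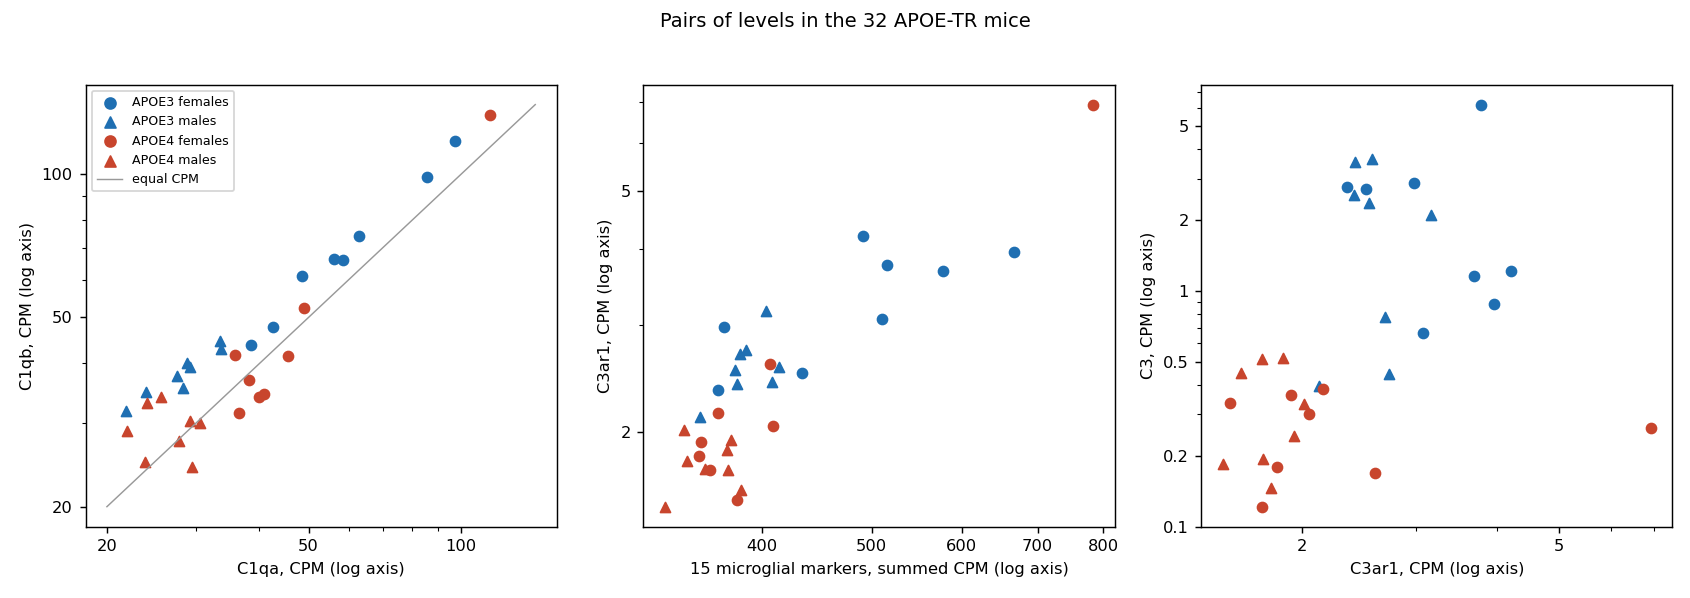
Levels in the 32 APOE-TR mice, 1 point per mouse (CPM, log axes), of C1qb against C1qa, of C3ar1 against 15 summed microglial markers, and of C3 against C3ar1, by allele and sex. At a given C1qa level most APOE4 mice lie below APOE3 mice in C1qb. APOE4 female control 21 lies at the upper end of the first 2 panels. In C3, 14 of 16 APOE3 mice lie above every APOE4 mouse. In C3ar1, 13 of 16 APOE4 mice lie below every APOE3 mouse, so few mice of the 2 alleles share a C3ar1 level.

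C4b, which acts between C1q and C3, C5ar1, the receptor for C5a, and Serping1 showed no allele difference that was called. In the 32-mouse fit the differences were -0.09 for C4b (95% interval -0.49 to 0.30, adjusted p = 0.730), 0.07 for C5ar1 (-0.10 to 0.24, adjusted p = 0.519) and -0.09 for Serping1 (-0.34 to 0.16, adjusted p = 0.591). C4b differences between the alleles ran in opposite directions in females, at 0.68 in filtered air and -0.71 after nPM, and neither was called. Group means were 8.12 ± 5.31 CPM in APOE3 female controls and 17.1 ± 13.8 CPM in APOE3 females after nPM (SD, n = 4), a mean raised by 1 mouse at 37.5 CPM beside others of at most 12.3 CPM. Its near copy C4a (1.43 to 2.87 CPM as APOE-TR group means) can share reads with it, so how the authors' unique mapping divided them is uncertain. The ratio of C4b to C4a had medians of 5.00 in APOE3 and 4.56 in APOE4 mice, and the smallest of its 4 exact p was 0.114. C5ar1 had group means of 0.205 to 0.399 CPM in APOE-TR mice, on 2 to 22 reads, so that only a large change was detectable at this depth. Serping1 had group means of 2.14 to 3.39 CPM in APOE-TR mice, and no group differed from its neighbour in order of level by more than the larger SD.

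Whether nPM changed complement RNA was asked in each genotype and sex and over all 48 mice, with an unadjusted p under 0.005 as the threshold of the study. None of the 8 genes passed it in any of these 7 comparisons. In 48 mice 1.48% of 11097 genes passed and 0 of 5 complement genes did, with differences (nPM minus control, log2 scale) of -0.14 for C1qa, -0.17 for C1qb, -0.06 for C1qc, 0.05 for C4b and -0.01 for C3ar1. Their 95% intervals lay between -0.47 and 0.46. By genotype and sex, 1.20% of all genes passed in B6 females (0 of 5 complement genes tested), 0.240% in B6 males (0 of 6), 0.665% in APOE3 females, 0.154% in APOE3 males, 0.272% in APOE4 females and 0.178% in APOE4 males (0 of 8 in each). At an unadjusted p under 0.05, 3 of 8 differed in APOE3 females, where 21.1% of all genes did, and 1 of 8 in APOE4 males, where 4.14% did. None differed at that threshold in 48 mice (14.4% of genes), B6 females (10.5%), B6 males (4.32%), APOE3 males (2.22%) or APOE4 females (5.59%). On recovered reads, neither edgeR nor DESeq2 called any of the 8 for nPM in the 4 APOE-TR groups.

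The 3 in APOE3 females were the C1q genes. C1qa was at 56.2, 58.4, 85.6 and 97.2 CPM in control and 38.5, 42.6, 48.4 and 62.8 CPM in nPM mice (-0.61, unadjusted p = 0.0228). C1qb differed by -0.60 (unadjusted p = 0.0328) and C1qc, at 51.1, 51.7, 63.4 and 68.3 CPM in control and 39.6, 40.5, 45.0 and 55.5 CPM in nPM mice, by -0.38 (unadjusted p = 0.0332). For each of the 3 the groups overlapped, and their adjusted p was 0.229. Controls 61 and F6 stand apart in this group, and without both the differences were -0.28, -0.25 and -0.20 (unadjusted p from 0.181 to 0.257). The summed microglial markers were 510 to 668 CPM in these controls and 366 to 492 CPM in the nPM mice. In APOE4 females the C1q differences were about -0.50 for C1qa (95% interval -1.10 to 0.11), -0.50 for C1qb and -0.51 for C1qc, and without control 21 they were -0.15, -0.07 and -0.13. In APOE4 males C1qc was 0.20 higher after nPM (unadjusted p = 0.0361). In B6 females, where nPM mice had 23.4 to 38.4 CPM of C1qa and controls 19.6 to 25.0 CPM, the difference was 0.31 (95% interval -0.14 to 0.76).

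C3 gave no nPM call either, with differences of 0.44 in APOE3 females, -0.26 in APOE3 males, 0.12 in APOE4 females and -0.17 in APOE4 males. In APOE3 females this rests on control 52. Without it C3 was higher after nPM by 1.01 (unadjusted p = 0.00496, adjusted p = 0.105), just under the threshold of 0.005. C3 then lay at 0.664, 0.881 and 1.15 CPM in the other 3 controls against 1.22 to 2.87 CPM in nPM mice. Controls 61 and F6, which stand apart, are among these 3 controls. The difference without controls 52, 61 and F6 together was not tested. C3ar1 in B6 females was at 0.129, 1.44, 1.71 and 2.36 CPM in control and 0.831, 3.09, 3.12 and 3.28 CPM in nPM mice (0.77, 95% interval -0.30 to 1.84). The lowest value after nPM came from animal 53, a library of 4.80 M reads with 6 reads of C3ar1, and the lowest control rested on 2 reads.

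**Figure D4:**
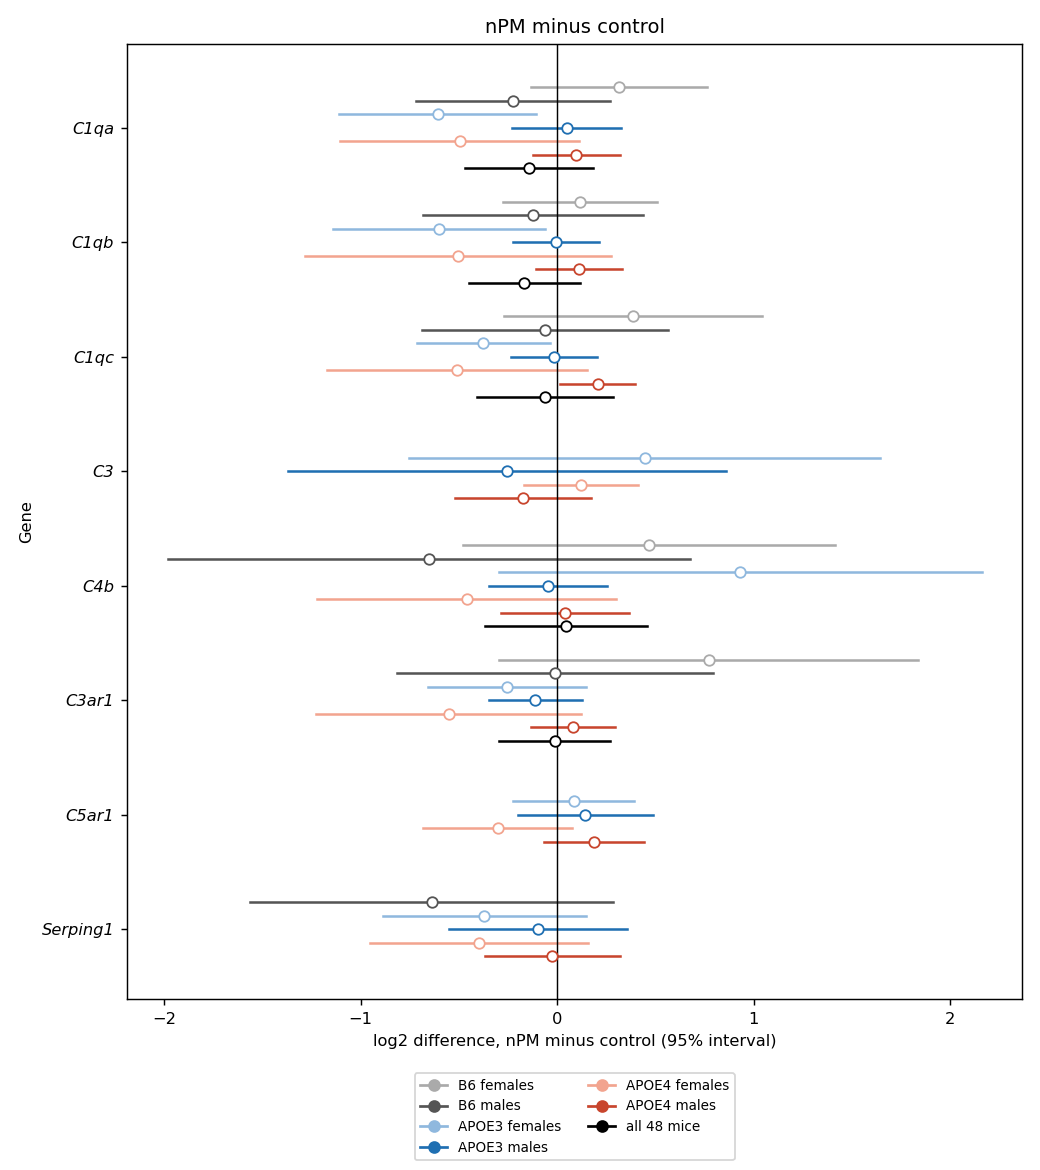
Difference with nPM (nPM minus control, log2(CPM + 0.5) scale) for each gene in the 6 combinations of genotype and sex and in the 48-mouse fit, with 95% intervals from limma. Genes below the filter in a fit have no point. No point is filled, since no gene passed an unadjusted p of 0.005, and the C1q genes in APOE3 females have intervals that end below 0.

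The effect of nPM was not called as different between the alleles for any of the 8 genes (0 of 8, against 0.726% of 15972 genes at an unadjusted p under 0.005). The differences ranged from -0.65 for C4b (95% interval -1.44 to 0.14, and -0.35 without controls 61 and F6) to 0.11 for C1qb. Nor was a difference called between the sexes in the nPM effect (0 of 5, against 1.97% of genes). The allele difference was not called as unlike between the sexes for any of the 8, although 20.6% of all genes were. For C3 that contrast was -0.27 (95% interval -1.19 to 0.65). None of the genes tested passed an unadjusted p of 0.05 in these 3 contrasts, against 10.6% of all genes for allele by nPM, 13.5% for sex by nPM and 41.5% for allele by sex, and edgeR and DESeq2 on recovered reads called none of the 8 for allele by nPM or allele by sex. Without controls 61 and F6, 0 of 16117 genes were called for it. Over the 8 genes and 10 comparisons of 4 against 4, the exact permutation test reached its smallest possible p of 0.0286 in 10 of 80 tests. These were C3, C1qb and C3ar1 in 3 strata each and C1qc in 1, all between the alleles and lower with APOE4. After adjustment for 80 tests these p were 0.229. Of single genes only these 8 had the exact test, so the share of all genes reaching this p is not known.

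The sex comparison was added after the values were seen. In APOE-TR mice the C1q genes were higher in females, by 0.92 for C1qa (95% interval 0.69 to 1.16, adjusted p = 1.40e-07), 0.73 for C1qb (adjusted p = 3.48e-05) and 0.82 for C1qc (adjusted p = 3.10e-07), and C3ar1 was higher by 0.30 (adjusted p = 0.0152). In B6 mice the C1q genes were lower in females, by 0.99 for C1qa (95% interval 0.67 to 1.31), 0.61 for C1qb and 1.17 for C1qc, and the call of C1qb was lost with unfiltered voom (-0.53, adjusted p = 0.150). C1qa lay at 35.8 to 114 CPM in 16 APOE-TR females and 21.8 to 33.6 CPM in 16 APOE-TR males, with no overlap. It lay at 19.6 to 38.4 CPM in 8 B6 females and 34.1 to 75.6 CPM in 8 B6 males, where 1 female was above the lowest male. The direction thus turned between the 2 experiments, and the sex difference in APOE-TR mice less that in B6 mice was 1.91 for C1qa, 1.34 for C1qb and 1.99 for C1qc (adjusted p from 1.81e-10 to 4.18e-06). The counts stand against broad sex differences, since 4 of 8 were called in APOE-TR mice where 62.7% of genes were, 3 of 5 in B6 mice where 26.7% were, and 3 of 5 for the difference between the experiments where 51.6% were. In APOE-TR mice sex and sequencing depth cannot be told apart, and the call of C3ar1 was lost with sample weights (0.13). Depth was not the one measure to move with sex there. Summed over 8 endothelial markers, APOE-TR females lay at 42.96 to 84.1 CPM and males at 98.6 to 160 CPM, and all 8 were called lower in females. The part of cell makeup in the sex difference was not tested. Of 15 microglial markers 9 were called higher and none lower in APOE-TR females, and in B6 females 2 were higher and 5 lower. C3, C4b, C5ar1 and Serping1 were not called for sex in either experiment, where tested.

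Across the 32 APOE-TR mice, each taken as its deviation from its group's mean log2 level, the C1q genes and C3ar1 varied together. These 32 points share 1 table and its normalization. Pearson's r was 0.96 for C1qb with C1qc, 0.91 for C1qa with C1qc, 0.89 for C1qa with C1qb and 0.83 for C1qb with C3ar1. Spearman's rho for these pairs was 0.92, 0.83, 0.79 and 0.57. Of 28 pairs, only these 4 passed by both measures (permutation p adjusted over 28 pairs, from 0.000280 to 0.0145 for r and from 0.000280 to 0.0449 for rho). Without the 2 mice farthest from the median of the first gene named, r fell to 0.92, 0.83, 0.79 and 0.57 for the same pairs. C3, C4b, C5ar1 and Serping1 were in none of the pairs that passed. For C3, r was no further from 0 than 0.34, and its r with its receptor C3ar1 was 0.00. For Serping1, r lay between -0.25 and 0.07. In the 16 B6 mice no pair passed by both measures.

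By the level in 32 mice, the genes most like each C1q gene were mostly one another and microglial genes, with Trem2 for C1qa (r = 0.96) and C1qc (r = 0.97), and Tyrobp (r = 0.96) and Fcgr3 (r = 0.95) for C1qb. The zinc transporter Slc39a1 was the third gene most like C1qa (r = 0.96, and 0.54 in B6 mice). C3ar1 was most like Mpeg1 (r = 0.95), Ctss (r = 0.91) and B2m (r = 0.91). These r with C3ar1 were between -0.14 and -0.03 in the 16 B6 mice. C4b was most like its copy C4a (r = 0.89 in APOE-TR and 0.24 in B6 mice), followed by Oasl2 (0.80) and Cybrd1 (0.75). Serping1 was most like Gjb2 (0.87), Fmod (0.83) and Slc6a13 (0.83, a marker of meningeal fibroblasts), with r of 0.42 to 0.65 in B6 mice. For C3 the highest included Gm14296 and 2210418O10Rik (r = 0.78 each), and after group means were removed these were -0.02 and -0.05. For C5ar1 they were lower, at 0.62 for Gm5126, 0.59 for Irf9 and 0.58 for Gm8989. The genes beside C3 on chromosome 17 did not share its size of difference. Among the nearest tested, Gm11110 was -0.32 in APOE4 (called), and Tnfsf9 (-0.01), Gpr108 (-0.09) and Trip10 (0.14) were not called. Beside the C1q genes, Ephb2 (0.27) and Kdm1a (0.10) were called higher in APOE4 and Epha8 (0.34) was not called. Beside C3ar1, Slc2a3 (0.18) and Foxj2 (0.26) were called higher, Necap1 (-0.13) was called lower and Clec4a1 (-0.02) was not called. Serpina3n, a gene of reactive astrocytes named for its earlier known allele difference in these mice, lay at 10.1 CPM in APOE3 and 61.4 CPM in APOE4 mice (means over 4 groups), a difference of 2.38 (adjusted p = 9.36e-08) in the opposite direction to C3. It is 1 of 10 listed reactive astrocyte genes and does not stand for the others. Summed over all 10, Serpina3n included, APOE3 and APOE4 group means were 105 and 150 CPM in control males and 107 and 148 CPM in males after nPM. They were 164 and 261 CPM in control females, with 1 APOE4 mouse at 511 CPM, and 158 and 148 CPM in females after nPM. The sum without Serpina3n was not tested.

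Of 55 other complement genes listed for the pathway, 39 passed the filter in the 32-mouse fit, of which 6 were called higher and 2 lower in APOE4 (median difference 0.01, against 0.00 over all genes), where 29.0% of all genes were called. Higher were Masp2 (0.62), a protease of the lectin pathway, Csmd1 (0.41), Csmd2 (0.39), Sez6l (0.27) and Sez6l2 (0.36), membrane proteins with complement control domains, and Lrp1 (0.38), an endocytic receptor. Among those lower was the inhibitor Cr1l (-0.22). Several of these calls rest on 2 mice. APOE3 female controls 61 and F6 had 13.2 and 11.02 CPM of Csmd1 where the other 30 mice had 21.0 to 76.2. Without both mice 3 of the 8 were still called (Masp2, Csmd1 and Sez6l2), Cd93 joined (-0.36), and the share of all genes called was 10.5%. Of the genes followed here, C3, C3ar1 and C1qb were still called without these mice (-1.63, -0.41 and -0.41) and C1qc was not (-0.24, adjusted p = 0.155). For allele by sex, 7 of the 39 were called, with Cfp (0.66), Csmd1 (0.84), Csmd2 (1.17), Sez6l (0.48), Sez6l2 (0.55) and Lrp1 (0.89) higher and C1qbp (-0.31) lower, and 0 of 39 without controls 61 and F6. For sex itself, 3 of 39 were called higher and 20 lower in APOE-TR females (62.7% of all genes were called), which became 0 higher and 19 lower without controls 61 and F6. In B6 females 2 of 23 were higher and 1 lower (26.7% of all genes were called).

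Among the other complement genes 23 of 55 were tested for nPM in 48 mice, and Cr1l (-0.37) and Sez6l2 (0.32) passed, where 1.48% of all genes did. In controls 61 and F6, Sez6l2 was at 57.2 and 60.5 CPM where the other 30 APOE-TR mice had 100 to 202 CPM. Cr1l was at 8.15 and 6.66 CPM in these controls, against 3.92 to 7.92 CPM. Whether either gene passed in 48 mice without both controls was not tested. Sez6l2 passed in B6 females (0.88, 1 of 23 tested against 1.20% of all genes) and Csmd3 in APOE4 females (0.34, 1 of 43 against 0.272%). In APOE3 females 2 of 40 passed (0.665% of all genes), among them Cd59a (-0.61), an inhibitor of the terminal pathway. Neither passed without controls 61 and F6 (-0.46 for Cd59a). None passed in B6 males, APOE3 males or APOE4 males. For allele by nPM, Colec11 (-0.36), a lectin pathway recognition protein, and Cd59b (0.41), a terminal pathway inhibitor, passed among 39 tested (0.726% of all genes did). The terminal pathway could be judged least, since 2 of its 7 genes passed the filter in 32 mice and none in 48.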

How the data were processed

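RNA from total cerebral cortex of 48 mice was sequenced by the authors as stranded, poly(A)-selected, single-end libraries. The deposited tables hold CPM per gene, made by the authors in Partek Flow after alignment with TopHat2 2.0.8b to mm10 (GRCm38) and counting against RefSeq genes. The scaling step is not given in the sources used here. The 2 tables were normalized separately, so no level was tested across them. Each column's lowest value stands for a gene without reads, and 96.1% to 97.1% of low values (up to 20.5 such steps) in the APOE-TR table were whole multiples of it within 0.1 step (87.7% to 98.4% in B6), from which reads and depth (2.05 to 31.3 M reads) were estimated. Intervals and limits from counts cover counting error only. Nothing in the labels ties mice to litters, so p-values measure the spread between these mice.

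CPM were rescaled within each table by TMM factors (edgeR 4.0.16, 0.917 to 1.02 and 0.975 to 1.03) and tested as log2(CPM + 0.5) with limma 3.58.1 (trend) in R 4.3.3, over genes above the no-read value in every mouse of a fit. This scale understates changes of low genes. P-values were adjusted over all genes tested by the Benjamini-Hochberg method. Calls used an unadjusted p under 0.005 for nPM and its interactions and 5% FDR for allele and sex. Fits had terms for sex, genotype and exposure (48 mice), used the means of the 8 APOE-TR groups (32 mice), or compared 4 mice with 4. Interactions and sex differences were contrasts of group means, over 12 groups where all 48 mice were used. Exact permutation tests and correlations used scipy 1.17.1, the latter with 100000 permutations. Scripts were tested on simulated data. On recovered APOE-TR reads, edgeR called 4158 and DESeq2 1.42.0 called 5026 of 15972 genes between the alleles in 32 mice (limma 4628), and each called 3 of the 8.

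The 8 genes and the marker and pathway lists were chosen with earlier results of these data known. Sex comparisons, ratios, values relative to microglial markers and values without animals 61 and F6 or the 5 shallow B6 libraries were added after the data were seen. Genes outside the 8 were named if called among the listed complement genes, if among the 3 most like a member over 32 mice, or if among the 2 nearest tested on each side of a member called for the allele, with Serpina3n added as a reactive astrocyte gene. A total of 4 listings of symbols found more than once were left out of each table. Of the 55 other complement genes, 7 in the APOE-TR and 11 in the B6 table were not analysed here. Some genes of the lists or selected by the naming rule are not reported here by name.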

Additional observations from a re-analysis of the deposited data

Results flagged for a closer look

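Of 96 combinations of gene and group, 11 held a mouse far from the other 3 of its group by Dixon's test, where chance gives about 1 in 20 (4.8). APOE4 female control 21 accounted for 3 of them, with C1qa at 114.098 CPM (the others at 39.8 to 48.9), C1qc at 105.689 CPM (33.1 to 43.2) and C3ar1 at 6.93199 CPM (1.73 to 2.59). B6 male control 0 was high in C1qb, at 142.568 CPM (62.0 to 74.6), and in C1qc, at 67.7229 CPM (29.1 to 33.7). C3 stood apart in 3 female groups, at 6.19056 CPM in APOE3 control 52 (0.664 to 1.15), at 1.22193 CPM in APOE3 nPM animal 55, which was low (2.72 to 2.87), and at 1.1722 CPM in B6 nPM animal 53 (0.0336 to 0.0782). That last library was also low in C3ar1, at 0.830586 CPM (3.09 to 3.28), and was 1 of the 5 shallow B6 libraries, with 4.80 M reads. C4b was high in APOE3 female nPM animal 59, at 37.5481 CPM (7.15 to 12.3), and in APOE4 male nPM animal 65, at 13.5641 CPM (8.31 to 9.01).

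The sex difference of the C1q genes differed between the experiments by an interaction term, by 1.91 on the log2 scale for C1qa, 1.34 for C1qb and 1.99 for C1qc (APOE-TR minus B6, limma). Strain, age, exposure length, nPM batch and table differ between the experiments and cannot be told apart.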

How the results depend on the processing

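Over 1290 values of the 8 genes under 16 alternatives in the planned comparisons, 1215 kept their direction and side of the threshold, 11 lost a call, 9 gained one and 55 changed sign, none of which was called with either setting. C3, C3ar1 and C1qb remained called lower in APOE4 in all 12 alternatives of the 32-mouse fit, with adjusted p of at most 0.000427, 0.0267 and 0.0473. C1qc was called in 5 of 12, and was lost with a pseudocount of 2 (adjusted p = 0.0521), no filter (0.0575), voom (0.0621), edgeR (0.0996) or DESeq2 (0.0796).

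The allele count in 48 mice was 0, and became 1 with no filter, 1 with voom, 1 with voom and ComBat and 2 with sample weights. In control females it was 0, and became 1 with DESeq2, 2 with a shared variance and 1 relative to microglial markers. In control males it was 1, and became 0 with a pseudocount of 2, 0 with no filter, 0 with a shared variance, 2 with sample weights and 3 with DESeq2. In females after nPM it was 1, and became 0 with a shared variance. In 48 mice the gene called with no filter, with voom and with voom and ComBat was C3, which the main filter had removed. The cause of the other changes was not tested.

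Leaving out 1 mouse at a time gave allele counts of 0 to 1 in 48 mice (1 without APOE4 female control 21), 0 to 1 in control females (1 without APOE3 control 52), 0 to 1 in control males and 3 to 5 in 32 mice. It gave nPM counts of 0 to 1 in APOE3 females (1 without control 52), and 0 to 1 for allele by sex (1 without animal 21). Counts were 3 to 4 for sex in B6 mice and 3 to 4 for sex by experiment. No paired analysis was possible because no pair of groups shared more than 1 animal number. Low counts limit C3 and C5ar1 in B6 mice, where the filter removed both. Most B6 mice without a C3 read were not among the 5 shallow libraries. Unfiltered, C5ar1 was called for sex by experiment (0.71, adjusted p = 0.0176).

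The values that changed sign, the sex comparisons included, are log2 differences, none of them called. With sample weights they were C1qb (-0.039) for nPM in B6 females, C1qc (0.048) and C3ar1 (0.23) for nPM in B6 males, Serping1 (0.082) for nPM in APOE3 females, C1qa (-0.058), C4b (0.0074) and Serping1 (0.065) for nPM in APOE3 males, Serping1 (0.0082) for nPM in APOE4 males, Serping1 (0.22) for the allele in control females, Serping1 (-0.11) for the allele in males after nPM, Serping1 (0.012) for the allele in 32 APOE-TR mice, C3ar1 (0.028) and Serping1 (-0.34) for allele by nPM, C4b (-0.14) and Serping1 (0.14) for allele by sex, C3ar1 (-0.26) for sex by nPM and C3 (-0.10) and Serping1 (-0.14) for sex in APOE-TR mice. Relative to microglial markers they were C1qa (0.016) and C4b (0.12) for the allele in 48 mice, C1qc (0.044), C3ar1 (0.0082) and Serping1 (0.15) for the allele in control females, C1qa (0.080), C5ar1 (0.055) and Serping1 (0.12) for the allele in control males, C1qa (0.11), C1qc (0.081) and C4b (0.038) for the allele in males after nPM and C1qa (0.016), C4b (0.12) and Serping1 (0.11) for the allele in 32 APOE-TR mice. Without controls 61 and F6 they were C1qc (0.012), C4b (-0.056) and C3ar1 (0.013) for nPM in 48 mice, Serping1 (0.015) for the allele in control females, C1qa (-0.086), C1qb (-0.067), C1qc (-0.045), C3 (0.10) and Serping1 (-0.060) for allele by nPM, C4b (-0.14) for allele by sex and C4b (0.12) and Serping1 (-0.024) for sex in APOE-TR mice. With edgeR they were C3 (0.029) for nPM in APOE3 males, Serping1 (-0.037) for the allele in males after nPM and C1qc (-0.045) and Serping1 (-0.015) for allele by nPM. With DESeq2 they were C3 (0.047) for nPM in APOE3 males, Serping1 (-0.036) for the allele in males after nPM and C1qc (-0.043) and Serping1 (-0.014) for allele by nPM. Without TMM they were C3ar1 (0.0095) for nPM in B6 males, C3ar1 (-0.018) for allele by sex and C3ar1 (-0.030) for sex by nPM. With a pseudocount of 0.1 they were C3ar1 (0.025) for nPM in 48 mice and C3ar1 (0.0046) for nPM in B6 males. With a pseudocount of 2 they were C3ar1 (-0.029) for sex by nPM and C3ar1 (0.0022) for sex in B6 mice. Without the 5 shallow B6 libraries they were C4b (-0.035) for nPM in 48 mice.

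With 1 mouse left out at a time, 132 of 2664 values changed sign, over 39 results and none of them called. The ranges of these results were C1qc (-0.12 to 0.015), C4b (-0.042 to 0.13) and C3ar1 (-0.10 to 0.054) for nPM in 48 mice, C4b (-0.21 to 0.042) for the allele in 48 mice and C1qb (-0.011 to 0.25) for nPM in B6 females. Further ranges were C1qb (-0.26 to 0.14), C1qc (-0.26 to 0.21) and C3ar1 (-0.21 to 0.29) for nPM in B6 males, C1qa (-0.062 to 0.14), C1qb (-0.095 to 0.066), C1qc (-0.095 to 0.046), C3 (-0.62 to 0.11), C4b (-0.13 to 0.054), C5ar1 (-0.025 to 0.23) and Serping1 (-0.29 to 0.092) for nPM in APOE3 males and C4b (-0.11 to 0.13) and Serping1 (-0.17 to 0.068) for nPM in APOE4 males. Ranges among the alleles were Serping1 (-0.37 to 0.022) for the allele in control females, C5ar1 (-0.099 to 0.043) and Serping1 (-0.14 to 0.095) for the allele in control males and C5ar1 (-0.17 to 0.011) for the allele in females after nPM. In males after nPM and in the fits of 32 mice they were C1qa (-0.15 to 0.014), C5ar1 (-0.057 to 0.20) and Serping1 (-0.16 to 0.22) for the allele in males after nPM, C4b (-0.20 to 0.024) for the allele in 32 APOE-TR mice and C1qb (-0.00024 to 0.33), C1qc (-0.042 to 0.23), C3 (-0.40 to 0.062), C3ar1 (-0.15 to 0.13) and Serping1 (-0.071 to 0.13) for allele by nPM. For interactions and sex they were C3 (-0.45 to 0.013), C4b (-0.046 to 0.39) and C3ar1 (-0.17 to 0.12) for allele by sex, C3ar1 (-0.16 to 0.13) for sex by nPM and C3 (-0.10 to 0.13), C4b (-0.15 to 0.046), C5ar1 (-0.067 to 0.015) and Serping1 (-0.037 to 0.073) for sex in APOE-TR mice. The last was C3ar1 (-0.20 to 0.17) for sex in B6 mice.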
